A study of Mus musculus with 77 samples.

Results

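Stra8 (stimulated by retinoic acid gene 8) is 1 of 19938 genes measured on 77 mouse testis arrays. It was taken by its symbol, which matched a single probe set, so no choice between probe sets was needed. The gene (gene ID 20899) lies on chromosome 6 from 34920163 to 34939344 in GRCm38.p6. The arrays came from 3 RiboTag lines, in which a Cre transgene puts an epitope tag on the ribosomes of the cells that carry it. Immunoprecipitation (IP) of tagged ribosomes recovers RNA bound to them, and total RNA comes from the whole sample. In the Stra8-cre:RiboTag line (FVB/N, germ cell tag) there were 16 IP and 23 total RNA arrays. In the Amh-cre:RiboTag line (FVB/N, Sertoli cell tag) there were 16 IP and 14 total RNA arrays. In the Ngn3-cre:RiboTag line (C57BL/6, germ cell tag) there were 4 IP and 4 total RNA arrays. Every animal had received WIN,18446 (BDAD) for 9 days, the controls included. Animals killed then are time 0, and the others were injected with retinoic acid (RA) and are labelled 4h, 12h, 24h, 48h, 4d, 6d or 8d; the Ngn3 line is represented at 0 and 4h. The Amh line has no 4h group of total RNA here (not analysed here). No sample was labelled as untreated or as injected with vehicle, so each change is against time 0 only. Of the 35 groups of line, fraction and time, 31 held 2 arrays, 1 held 3 and 3 held 4; the larger groups are Stra8 total RNA at 4h (3 arrays) and at 0, at 24h or at 48h (4 arrays). The labels do not say whether replicate arrays came from separate animals, so p-values measure the spread between these arrays, which may be technical. The Stra8-cre transgene is driven by the promoter of the gene described here, a limit of that line as a model for it. Ngn3-cre line and strain cannot be told apart.

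Stra8 encodes a protein of premeiotic germ cells that enters the nucleus and, with its partner Meiosin, turns on genes of meiotic entry. RA made by Sertoli cells and later by spermatocytes binds nuclear RA receptors and induces Stra8 in spermatogonia as they begin to differentiate and again in preleptotene spermatocytes as they enter meiosis. BDAD blocks the aldehyde dehydrogenases that make RA, so spermatogonia stay undifferentiated until RA is given, and they then advance together.

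RA receptors bind pairs of the hexamer AGGTCA or close variants of it. The 250 bases before the Stra8 start in the RefSeq promoter table are shown because the gene is named for its response to RA; that start lies inside the gene's annotated span, downstream of its first base. They are shown with those of Rarb (an RA receptor) and Cyp26a1 (an enzyme that degrades RA), whose rise after RA is set beside that of Stra8 here, and of Rec8 (a meiotic cohesin subunit). Sequences are RefSeq, GRCm38.p6, written on the strand of each gene; capitals mark, on either strand, the hexamer AGGTCA, its variant GGGTCA, its variant AGTTCA and its variant GGTTCA.
Stra8, chr6:34920698-34920947, plus strand: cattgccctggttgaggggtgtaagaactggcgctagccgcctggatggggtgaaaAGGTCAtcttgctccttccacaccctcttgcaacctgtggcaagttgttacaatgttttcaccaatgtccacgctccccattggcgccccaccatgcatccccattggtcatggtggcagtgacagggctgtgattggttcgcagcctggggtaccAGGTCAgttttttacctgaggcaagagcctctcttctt
Rarb, chr14:16575477-16575726, minus strand: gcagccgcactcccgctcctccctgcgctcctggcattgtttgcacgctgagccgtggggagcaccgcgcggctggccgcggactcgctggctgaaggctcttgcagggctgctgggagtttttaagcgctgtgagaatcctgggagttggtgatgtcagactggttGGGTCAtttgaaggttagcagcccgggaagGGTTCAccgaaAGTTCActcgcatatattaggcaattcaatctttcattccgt
Cyp26a1, chr19:37697558-37697807, plus strand: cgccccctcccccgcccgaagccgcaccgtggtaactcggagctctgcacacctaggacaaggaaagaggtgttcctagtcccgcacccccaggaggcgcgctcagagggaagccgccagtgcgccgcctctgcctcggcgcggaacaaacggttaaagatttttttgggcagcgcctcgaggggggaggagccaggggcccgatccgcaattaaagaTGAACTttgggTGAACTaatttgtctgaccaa
Rec8, chr14:55617916-55618165, plus strand: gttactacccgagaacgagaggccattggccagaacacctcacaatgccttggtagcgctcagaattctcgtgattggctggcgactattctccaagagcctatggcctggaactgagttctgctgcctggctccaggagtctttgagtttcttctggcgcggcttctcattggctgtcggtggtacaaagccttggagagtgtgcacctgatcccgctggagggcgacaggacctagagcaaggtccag

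In the Stra8 window, AGGTCA began at positions -194 and -38 from the start, both on the gene's strand. AGGTCA was present in 14.0% of 32851 promoter windows of this length and at 2 or more places in 1.36%. The Rarb window held GGTTCA and AGTTCA as a direct repeat 5 bases apart, and the Cyp26a1 window held AGTTCA repeated 5 bases apart on the opposite strand. Such a direct repeat with 0 to 5 bases between its parts was present in 0.706% of windows; the Stra8 hexamers lie farther apart. GGGTCA was present in 11.6% of windows, AGTTCA in 11.8%, GGTTCA in 8.85% and any of the 4 in 38.6%. The Rec8 window held none. A match describes letters and not a bound site. The motif CNCCTCAG, known for Stra8 and Meiosin target promoters, was searched on both strands. It was in none of these 4 windows and in 7.39% of 27025 genes. Of the 34 genes of the meiotic entry and prophase list that have a window, 5 held it (14.7%). It was also in 3 of 16 Sertoli cell markers (18.8%) and 2 of 15 genes of undifferentiated spermatogonia (13.3%). Among germ cell markers it was in 0 of 12. A share above that of all genes was therefore not particular to the meiotic list.

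Some arrays went against their labels. Levels are RMA intensities, or their log2. In the Amh line, Rarb (log2 level) was 8.88 and 8.82 in total RNA labelled 4d and 8.58 and 8.56 in IP RNA labelled 4d, as in Ngn3 total RNA at 4h (8.49 on both arrays), whereas Amh IP RNA labelled 4h read 7.18 and 7.16. Cyp26a1 read 8.71 and 8.75 in Amh total RNA labelled 4d. In Stra8 total RNA labelled 4h, Rarb was 8.52 on replicate 1 but 6.98 and 6.99 on replicates 2 and 3. Dmrtb1, a transcription factor of late spermatogonia, read 172 (intensity) on replicate 1 of that group but 1794 and 2202 on replicates 2 and 3, against 1084 and 888 in Stra8 total RNA labelled 4d. Groups follow the labels throughout, and leaving out the Amh arrays labelled 4h and 4d, or the Stra8 total arrays labelled 4h, changed no call on Stra8 in any other comparison. Array medians ran from 252.6 to 300.5 and array minima from 25.1 to 26.3. The tagged cells matched their labels on markers: 10 of 15 germ cell markers were higher in Stra8 IP than in total RNA and none lower, and 20 of 23 Sertoli cell markers were lower and none higher, where 9.21% of all genes were called. In Amh IP against total RNA 12 of 15 germ cell markers were lower and 5 of 23 Sertoli cell markers higher, where 5.04% of all genes were called. Sertoli markers remained present in Stra8 IP RNA, with a mean log2 level from 8.87 to 10.70 per array against 11.23 to 11.60 in Stra8 total RNA.

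Stra8 rose in germ cell IP RNA at the first time after RA and was highest at 6d. Its means at 24h, 48h and 4d were lower than at 12h, without a called step between 24h and 4d. At time 0 the Stra8 IP arrays read 343 and 268. The 4h arrays read 1336 and 1258, the 12h arrays 2073 and 2386. Both arrays at 4h were above both at time 0, and both at 12h were above both at 4h. The arrays then read 1313 and 1848 at 24h and 1073 and 808 at 48h, all above time 0. At 4d the arrays disagreed, reading 320 and 1120, and the lower lay within the time 0 range, the higher above both 48h arrays. At 6d they read 4040 and 3172, above every other array of the series, and at 8d 1672 and 1569.

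**Figure D1:**
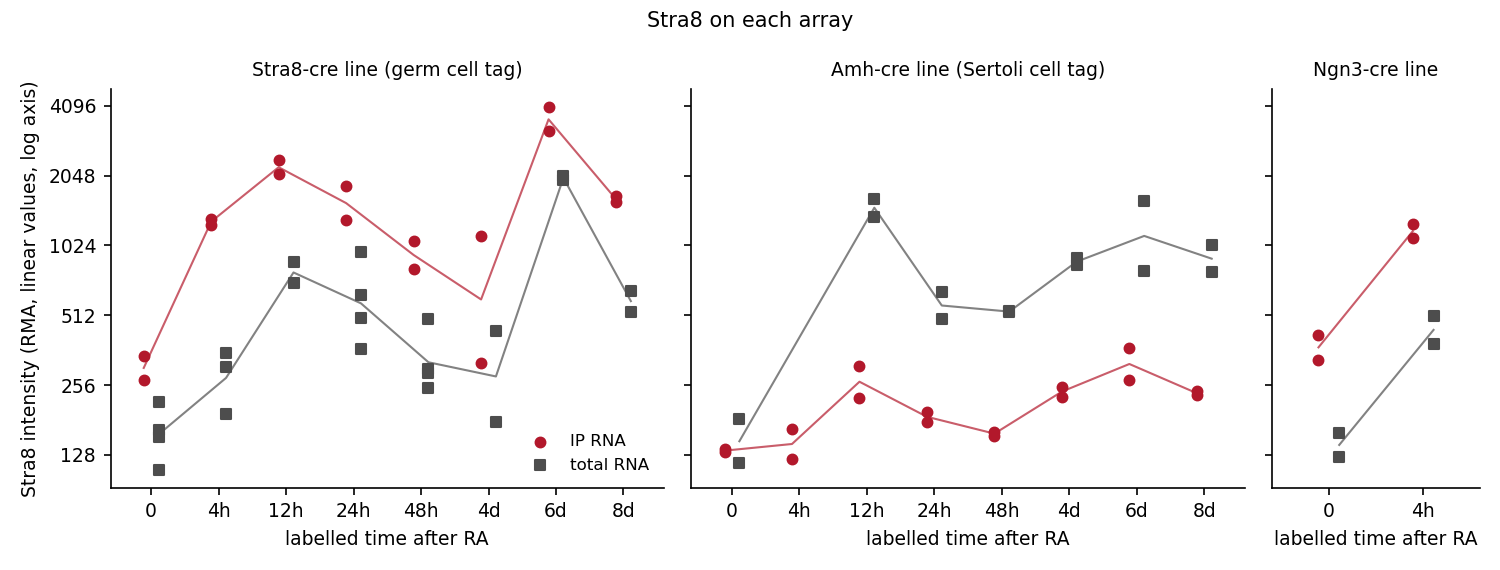
Stra8 intensity on every array (log axis) against labelled time after RA (categories, not to scale), IP RNA as circles and total RNA as squares, with lines through the group means of log2 values. In the Stra8-cre line IP RNA peaks at 12h and 6d; in the Amh-cre line total RNA rises and IP RNA stays between 123 and 368.

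The rises were called by limma with Benjamini-Hochberg adjustment over 19938 genes (adjusted p under 0.05 and at least 2-fold) at every time but 4d. The standard error of each log2 difference was 0.38. It rests on a spread shared over all 35 groups and not on the arrays of 1 group. The 2 Stra8 IP arrays at 4d alone had an SD of 1.28 (log2). Stra8 IP RNA was 4.27-fold higher at 4h than at time 0 (log2 2.10, adjusted p = 0.000396), the third largest rise of any gene, in a comparison where 0.241% of genes were called. At 12h it was 7.33-fold higher (log2 2.87, adjusted p = 6.26e-07) and at 24h 5.13-fold (log2 2.36, adjusted p = 2.77e-05), the largest rise of all genes tested at both times, with 0.476% and 0.441% of genes called. At 48h the difference was 3.07-fold (log2 1.62, adjusted p = 0.00236), rank 11, with 0.888% called. Without Stra8 IP 0 replicate 2 the 48h difference was 1.44 (adjusted p = 0.0715), and without Stra8 IP 48h replicate 1 it was 1.41 (adjusted p = 0.06).

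At 6d Stra8 IP RNA was 11.8-fold above time 0 (log2 3.56, adjusted p = 1.19e-10), the second largest rise, and at 8d 5.34-fold (log2 2.42, adjusted p = 8.13e-07). Many more genes differed by then, 5.98% at 6d and 7.39% at 8d, and Stra8 ranked 75 at 8d. The 4d difference (log2 0.98, 95% interval 0.216 to 1.74, adjusted p = 0.0562) was not called, where 1.95% of genes were. It was 1.88 without Stra8 IP 4d replicate 1 (adjusted p = 0.000815, called) and 0.08 without replicate 2. Replicate 1, the lower for Stra8, had a mean Sertoli marker level of 10.70 (log2), against 9.86 on replicate 2, and a mean germ cell marker level of 10.91 against 11.17. The part of this difference in the Stra8 value was not tested.

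**Figure D2:**
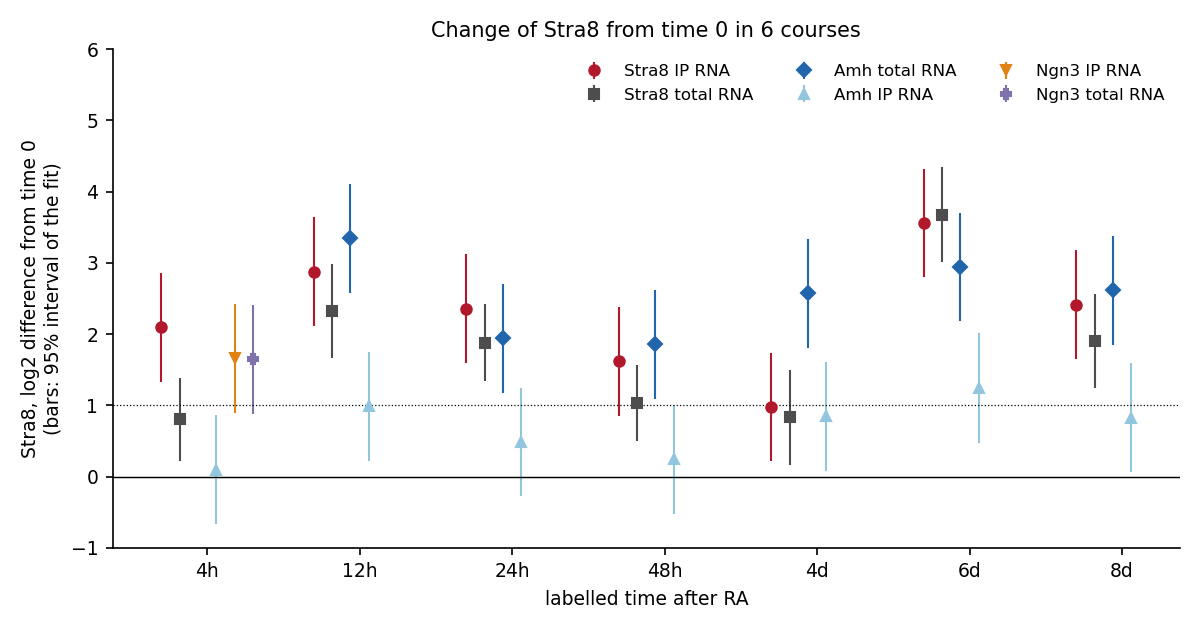
Log2 difference of Stra8 from time 0 of the same line and fraction at each labelled time, points with the 95% interval of the limma fit; the dotted line marks 2-fold. Germ cell IP RNA and both total RNA courses lie above 0 at 12h and 6d (2.87 and 3.56 in Stra8 IP RNA), and Sertoli cell IP RNA lies lowest at every time but 4d.

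From 4d to 6d Stra8 IP RNA rose 5.98-fold (log2 2.58, adjusted p = 4.46e-07), in a comparison with 4.15% of genes called. The rise was 1.68 without Stra8 IP 4d replicate 1 and 3.48 without replicate 2, called both times. Markers of other cells moved with this step: 16 of 23 Sertoli cell markers were lower at 6d than at 4d and none higher (median -1.46), as were 2 of 6 macrophage and 2 of 6 peritubular myoid markers, where 2.29% of all genes were higher and 1.86% lower. Germ cell markers had a median of 0.122, with 1 of 15 higher. Their part in the Stra8 step was not tested. From 24h to 48h the difference was -0.74 (adjusted p = 0.465; 0.0502% of genes called) and from 48h to 4d -0.64 (adjusted p = 0.257; 1.34%), neither called. Without Stra8 IP 4d replicate 2 the 48h to 4d difference was -1.54 (adjusted p = 0.00551, called). From 6d to 8d Stra8 fell by 1.14 on the log2 scale (adjusted p = 0.0255; 1.92% of genes called), but this call was lost on leaving out any of the 4 arrays: -0.97 without Stra8 IP 6d replicate 1, -1.32 without 6d replicate 2, -1.19 without 8d replicate 1 and -1.10 without 8d replicate 2. The arrays at 6d were all above those at 12h, but the difference of 0.69 (95% interval -0.0776 to 1.45, adjusted p = 0.194) was not called, with 3.77% of genes called.

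Total RNA of the Stra8 line was highest at 6d and next highest at 12h. The 4 arrays at time 0 read 154, 164, 217 and 110. At 4h the arrays read 305, 353 and 193, the last within the time 0 range. The 12h arrays read 707 and 867. The 24h arrays spread from 366 to 959, with 500 and 628 between, and the 48h arrays read 301, 288, 248 and 495. At 4d they again disagreed (178 and 436), and they read 2043 and 1964 at 6d and 654 and 530 at 8d. The groups at 12h, 24h, 48h, 6d and 8d did not overlap time 0, and those at 4h and 4d did. In bulk RNA of this kind, fewer cells of a type and less RNA per cell cannot be told apart.

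The rises in total RNA of the Stra8 line were 4.99-fold at 12h (log2 2.32, SE 0.329, adjusted p = 3.51e-06; 0.461% of genes called), 3.67-fold at 24h (log2 1.88; 0.301%) and 12.8-fold at 6d (log2 3.68, adjusted p = 2.09e-12; 3.9%). The 8d difference was 1.91 (adjusted p = 6.08e-06; 4.86%). At 48h it was 1.03 (adjusted p = 0.0103; 0.246%), called, but 0.87 without Stra8 total 0 replicate 4 (adjusted p = 0.0543) and 0.83 without Stra8 total 48h replicate 4 (adjusted p = 0.0841). At 4h it was 0.81 (adjusted p = 0.0467; 0.386%), below the 2-fold minimum, and 1.07 without Stra8 total 4h replicate 3 (called). At 4d it was 0.83 (adjusted p = 0.0756; 0.988%), and 1.48 without Stra8 total 4d replicate 1 (called).

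The Sertoli line gives a second set of whole-sample RNA, whose germ cells carry no tag by design, and Stra8 rose there too. Amh total RNA read 118 and 182 at time 0 and 1630 and 1359 at 12h. The 24h arrays read 644 and 494, the 48h arrays 530 and 531. The arrays labelled 4d read 900 and 844, those at 6d 793 and 1597, and those at 8d 785 and 1027. All 6 later groups lay above time 0 with no overlap. At 12h Stra8 was 10.2-fold higher (log2 3.34, SE 0.38, adjusted p = 2.5e-08), the largest rise of all genes tested, where 0.888% of genes were called. At 24h the difference was 1.94 (adjusted p = 0.00315), again the largest, with 0.145% called. Without Amh total 0 replicate 1 it was 1.63 (adjusted p = 0.29) and without Amh total 24h replicate 1 it was 1.75 (adjusted p = 0.185).

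At 48h the difference in Amh total RNA was 1.86 (adjusted p = 0.00105; 0.592% of genes called), and 1.55 without Amh total 0 replicate 1 (adjusted p = 0.0631). It was 2.57 on the arrays labelled 4d (0.552%), 2.94 at 6d (3.05%) and 2.61 at 8d (5.8%), all called. Among all genes Stra8 ranked 3 at 4d, 7 at 6d and 50 at 8d.

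The responses in total RNA of the Stra8 and Amh lines were set against each other by the difference of their changes from time 0. At 12h the Stra8 line's change was smaller by 1.02 (difference -1.02, 95% interval -2.04 to -0.0136, adjusted p = 0.909; 0.00502% of genes called). The difference was -0.07 at 24h (0.00502%), -0.82 at 48h (0.0702%), 0.73 at 6d (0.512%) and -0.71 at 8d (0.547%), none called. With 1 array left out these ran from -1.14 to -0.51 at 48h, from 0.23 to 1.24 at 6d and from -1.02 to -0.39 at 8d, again not called. At 4d it was -1.74 (adjusted p = 0.0273; 1.41%), called, in a comparison that rests on the Amh arrays labelled 4d. This call was lost without Stra8 total 0 replicate 3 (-1.59), Stra8 total 4d replicate 1 (-1.10), Amh total 0 replicate 1 (-1.43), or Amh total 4d replicate 1 (-1.70) or replicate 2 (-1.79). Averaged over shared times, Stra8 was lower by 0.42 in Stra8 total than in Amh total RNA (difference -0.42, 95% interval -0.694 to -0.148, adjusted p = 0.0258), below the 2-fold minimum, with 0.0301% of genes called. The shared times include 4d, where the Amh arrays go against their label. Over the settings run this mean difference ran from -0.513 to -0.217.

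The Ngn3 line, whose Cre marks spermatogonia, gave a germ cell IP from another Cre driver, and Stra8 rose there at 4h. Ngn3 IP RNA read 423 and 328 at time 0 and 1104 and 1261 at 4h, and total RNA 160 and 125 at time 0 and 386 and 508 at 4h. Neither pair of groups overlapped. The IP rise was 3.17-fold (log2 1.66, SE 0.38, adjusted p = 0.00573; 0.311% of genes called) and the total rise 3.13-fold (log2 1.65, adjusted p = 0.0123; 0.301%). The call in total RNA was lost on leaving out any of its 4 arrays: 1.83 without Ngn3 total 0 replicate 1, 1.47 without 0 replicate 2, 1.85 without 4h replicate 1 and 1.45 without 4h replicate 2. That in IP RNA was lost without Ngn3 IP 0 replicate 2 (1.48) or Ngn3 IP 4h replicate 2 (1.57).

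The 4h response in Ngn3 IP RNA differed from that in Stra8 IP RNA by -0.43 (95% interval -1.51 to 0.649, adjusted p = 0.802). In that limma comparison 0% of genes were called, and 1991 had an unadjusted p under 0.05. In total RNA the difference was 0.84 (95% interval -0.123 to 1.8, adjusted p = 0.46; 0.261%), not called, and its Stra8 side holds the arrays labelled 4h that go against their label.

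Stra8 was enriched on tagged ribosomes of germ cells and depleted on those of Sertoli cells. Averaged over the 8 times, Stra8 was 2.61-fold higher in IP than in total RNA of the Stra8 line (log2 1.38, SE 0.126, adjusted p = 3.93e-14), where 9.21% of genes were called. In the Ngn3 line the difference was 1.41 (SE 0.269, adjusted p = 1.1e-05; 12.9%). In the Amh line it was -1.66 (SE 0.144, adjusted p = 1.21e-14; 5.04%), a 3.15-fold lower level in IP. In the Stra8 line the IP arrays lay above the total arrays at every time except 4d, where they overlapped. The differences at time 0 (0.95, adjusted p = 0.0129; 12.9% of genes called) and at 6d (0.84, adjusted p = 0.0685; 9.41%) were below 2-fold and not called. In the Amh line the IP arrays lay below the total arrays at every time with both except time 0.

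IP minus total of Stra8 in the Stra8 line was below the germ cell marker median at time 0 and above it at 4h, a variation over time that the F test did not call. At time 0 IP minus total was 0.95 for Stra8 (95% interval 0.291 to 1.61) against a median of 1.89 for 15 germ cell markers. At 4h it was 2.24 (1.54 to 2.94) against 1.49, at 12h 1.51 against 1.49, and at 24h 1.44 against 1.57. Total RNA labelled 4h holds arrays that go against their label. The 4h values, and the departure at 4h in the F test below, rest in part on them. At 6d IP minus total of Stra8 was 0.84 (0.0737 to 1.6) against 0.945, and at 8d 1.46 against 0.904. The F test over the 8 times gave no call (largest departure 1.29 at 4h, adjusted p = 0.279; 5.52% of genes called). Without Stra8 IP 4d replicate 2 it was called (adjusted p = 0.0309).

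**Figure D3:**
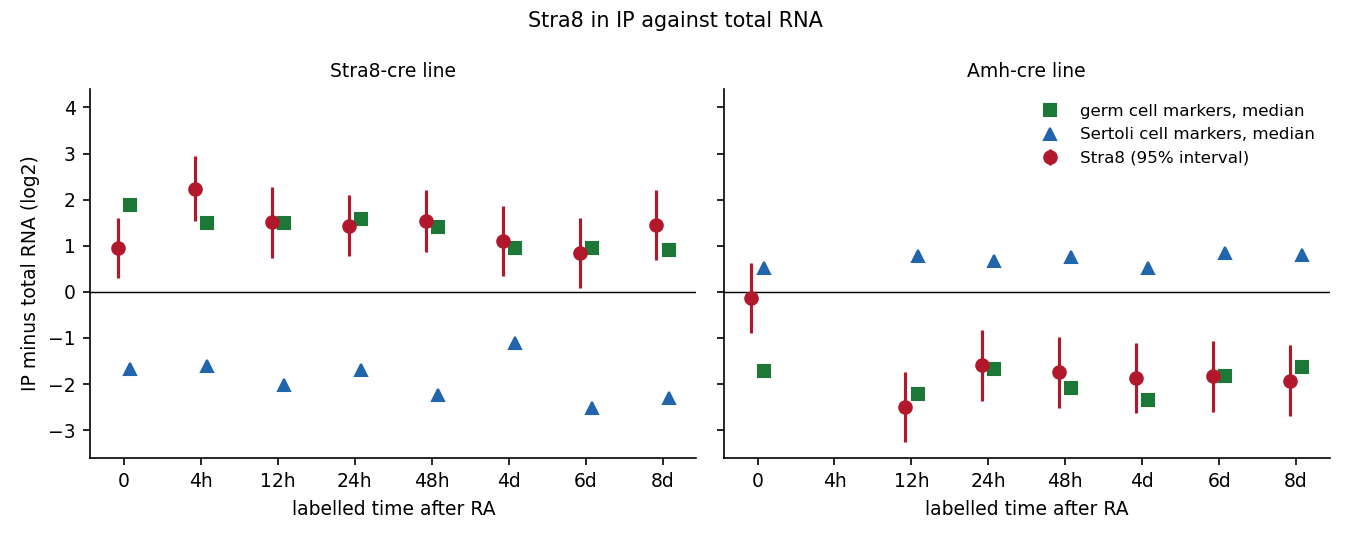
IP minus total RNA (log2) at each labelled time for Stra8 (circles, 95% interval of the limma fit), with the medians of the germ cell markers (squares) and Sertoli cell markers (triangles). In the Stra8-cre line Stra8 lies above 0 at each time and below the germ cell median at time 0 (0.95 against 1.89); in the Amh-cre line it lies near 0 at time 0 (-0.14) and at -1.59 or lower from 12h.

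In the Amh line IP minus total was -0.14 at time 0 (95% interval -0.899 to 0.629), -2.49 at 12h and between -1.93 and -1.59 from 24h to 8d, where the germ cell marker median ran from -2.35 to -1.62. At time 0 that median was -1.72, while Stra8 was near the lowest level of the series in both fractions and its interval included 0. The F test over times was called (largest departure -2.36 at 12h, adjusted p = 0.0315; 4.18% of genes). It was not called without Amh total 0 replicate 1 (adjusted p = 0.27), Amh IP 0 replicate 1 (0.118) or replicate 2 (0.132), Amh total 12h replicate 1 (0.0634) or Amh IP 12h replicate 2 (0.074).

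In Sertoli IP RNA Stra8 stayed low. The arrays read 132 and 135 at time 0, 166 and 123 at 4h, and 311 and 225 at 12h. The 24h arrays read 177 and 197, the 48h arrays 155 and 161. They read 252 and 228 at the label 4d, 270 and 368 at 6d, and 241 and 231 at 8d. The groups from 12h on lay above time 0 without overlap, but the differences were small. Only 6d was called (log2 1.24, adjusted p = 0.0133; 3.41% of genes called). The others were 0.10 at 4h (1.94%), 0.99 at 12h (1.55%), 0.49 at 24h (0.537%), 0.24 at 48h (1.22%), 0.85 at 4d (0.943%) and 0.82 at 8d (5.63%). The 6d call was lost without Amh IP 0 replicate 1 (1.22) or replicate 2 (1.26), or without Amh IP 6d replicate 2 (1.02).

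The F test over the Amh IP course was called (largest difference 1.24 at 6d, adjusted p = 0.0314; 7.62% of genes). It was not called without Amh IP 0 replicate 1 (adjusted p = 0.0683) or replicate 2 (0.0638), Amh IP 4h replicate 2 (0.0698), Amh IP 12h replicate 1 (0.0567) or Amh IP 6d replicate 2 (0.108). Germ cell markers in Amh IP RNA had mean log2 levels from 7.83 to 8.88 per array; their part in the Stra8 signal was not tested. Averaged over the 8 times, Stra8 was 5.99-fold higher in Stra8 IP than in Amh IP RNA (log2 2.58, SE 0.134, adjusted p = 1.56e-23; 16.8% of genes called). The responses over time also differed between them (F test, largest difference 2.32 at 6d, adjusted p = 0.000516; 18.7% of genes).

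Ordered by mean log2 level, the 35 groups ran from Stra8 IP at 6d (11.81 ± 0.247, SD, n = 2) through Stra8 IP at 12h (11.12 ± 0.144), Stra8 total at 6d (10.97 ± 0.0403), Stra8 IP at 8d (10.66 ± 0.0651), Stra8 IP at 24h (10.61 ± 0.349), Amh total at 12h (10.54 ± 0.186) and Stra8 IP at 4h (10.34 ± 0.0615) down to Amh IP at time 0 (7.06 ± 0.0276). The groups of the top 3 did not overlap their neighbours below. Of 34 neighbouring pairs 27 overlapped, Stra8 IP at 8d with Stra8 IP at 24h among them, and 7 did not. Total RNA at time 0 of all 3 lines was among the lowest 5 groups, together with Amh IP at 0 and 4h.

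The RA targets Cyp26a1 and Rarb were called in Stra8 IP RNA at 4h and not at 12h, whereas Stra8 was called at both. The 4h and 12h levels were not tested against each other. In Stra8 IP RNA at 4h, 5 of 17 measured RA-induced genes were called higher and none lower, where 0.231% of all genes were called higher and 0.01% lower; 9 were higher at an unadjusted p under 0.05. They were Cyp26a1 (log2 difference 2.90), Rarb (2.21), Tgm2, a transglutaminase (1.26), Hoxb1, a homeobox factor (1.24), and Dhrs3, a retinal reductase that limits RA synthesis (1.18). At 12h Cyp26a1 was at 0.77 and Rarb at 0.93, neither called, whereas Stra8 was at 2.87. Kit, the receptor of differentiating spermatogonia, was at 0.97 at 4h (not called), and rose by 1.95 at 12h, 2.24 at 48h and 1.78 at 4d, all called. At 6d Cyp26a1 was called again (1.46), while Rarb was at 0.97 (not called). Of 6 RA receptor genes Rarb at 4h was the only one called at any time in Stra8 IP RNA. In Amh total RNA at 12h 1 of these 6 was called higher, where 0.888% of all genes were called. Rarb had a mean log2 level of 6.87 at time 0 and 8.11 at 12h in Amh total RNA. Stra8 itself was not in the RA-induced list.

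**Figure D4:**
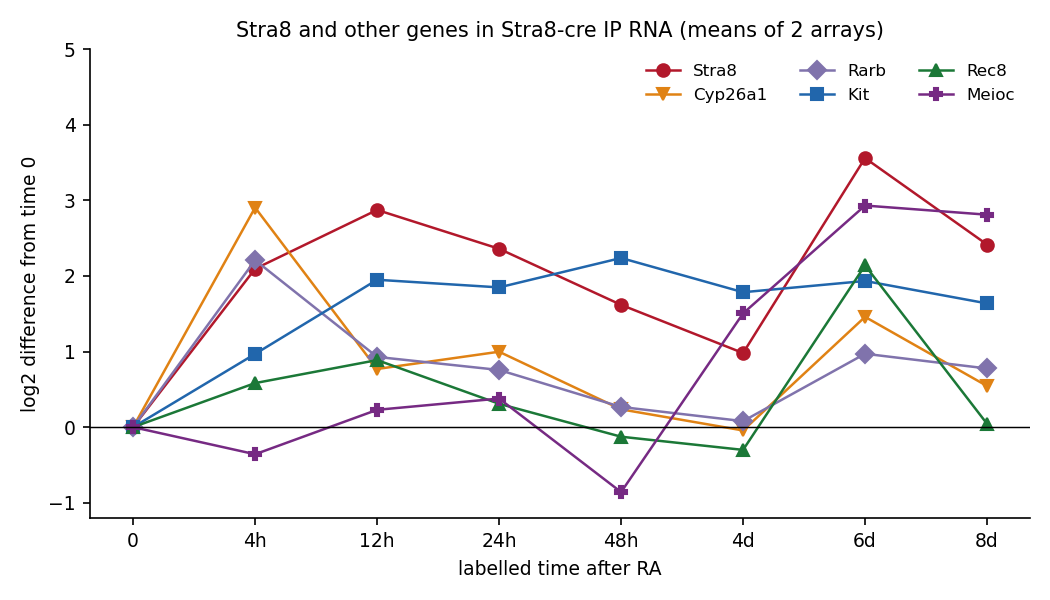
Log2 difference from time 0 in Stra8-cre IP RNA (means of 2 arrays) against labelled time for Stra8, 2 RA targets (Cyp26a1, Rarb), Kit, Rec8 and Meioc. Cyp26a1 and Rarb are highest at 4h (2.90 and 2.21), Stra8 has highs at 12h and 6d, and Rec8 and Meioc are highest at 6d (2.14 and 2.93).

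The meiotic entry and prophase list differed between the first and the second rise of Stra8. At 12h, with Stra8 7.33-fold up, limma called 0 of 39 measured genes of that list (median difference 0.23, against -0.003 over all genes). At this time 0.14% of all genes were called higher and 0.336% lower, so a count of 0 calls among 39 is near the background. At an unadjusted limma p under 0.05 there were 8 of the 39, all higher, and 2792 of all 19938 genes in either direction. Without Stra8 IP 0 replicate 1 the list had 1 call at 12h. At 4h 0 were called, where 0.231% of all genes were called higher and 0.01% lower. At an unadjusted limma p under 0.05 there was 1, and 2403 of all genes. At 24h Mei1 (1.30) and Dmc1, a meiotic recombinase (1.03), were called, where 0.211% of genes were called higher and 0.231% lower, and at 48h Mei1 (1.29; 0.341% higher and 0.547% lower). At 4d Meioc (1.505) and Mei1 (1.09) were called higher and Hsf2bp (-1.12) and Rad21l (-1.01) lower, where 0.848% of all genes were higher and 1.1% lower.

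At 6d, with Stra8 11.8-fold up, 21 of 39 were called higher and none lower (median 1.05, against -0.0508), where 3.71% of all genes were higher and 2.27% lower. In the same comparison 10 of 23 Sertoli cell markers (median -0.759), 2 of 5 Leydig cell markers (median -1) and 2 of 6 peritubular myoid markers were lower and none higher, and 1 of 15 germ cell markers was higher (median -0.224); their part in these counts was not tested. At 8d 22 were higher and none lower (median 1.21; 4.38% and 3.01%). Set directly against 12h, 17 of the 39 were higher at 6d (median 0.836, against -0.0554), where 2.96% of all genes were higher and 0.802% lower. Stra8 differed by 0.69, which was not called. In this comparison 6 of 23 Sertoli cell markers (median -0.526) and 1 of 5 Leydig cell markers were lower and none higher. Of 15 germ cell markers 1 was higher (median -0.216). The part of these markers in the count of 17 was not tested. Prdm9, the histone methyltransferase that places recombination sites, read 189 and 183 at 12h and 1441 and 1444 at 6d (log2 difference 2.96). Meioc, an RNA-binding cofactor of meiotic progression, differed by 2.70 and its partner Ythdc2 by 1.82. Rec8, the meiotic cohesin subunit, differed by 1.25: it was at 0.58 at 4h and 0.89 at 12h (neither called), 2.14 at 6d (called) and 0.04 at 8d. The genes of the list had different times. Spo11, which makes meiotic double-strand breaks, was at 0.99 at 6d and 4.00 at 8d, and Meiob, a single-strand DNA binding protein, at 1.68 and 4.70. Sycp3 and Hormad1, axis proteins, were called at neither time (0.42 and 0.67 for Sycp3, 0.56 and 0.82 for Hormad1). Meiosin, the partner of Stra8, was not analysed here.

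**Figure D5:**
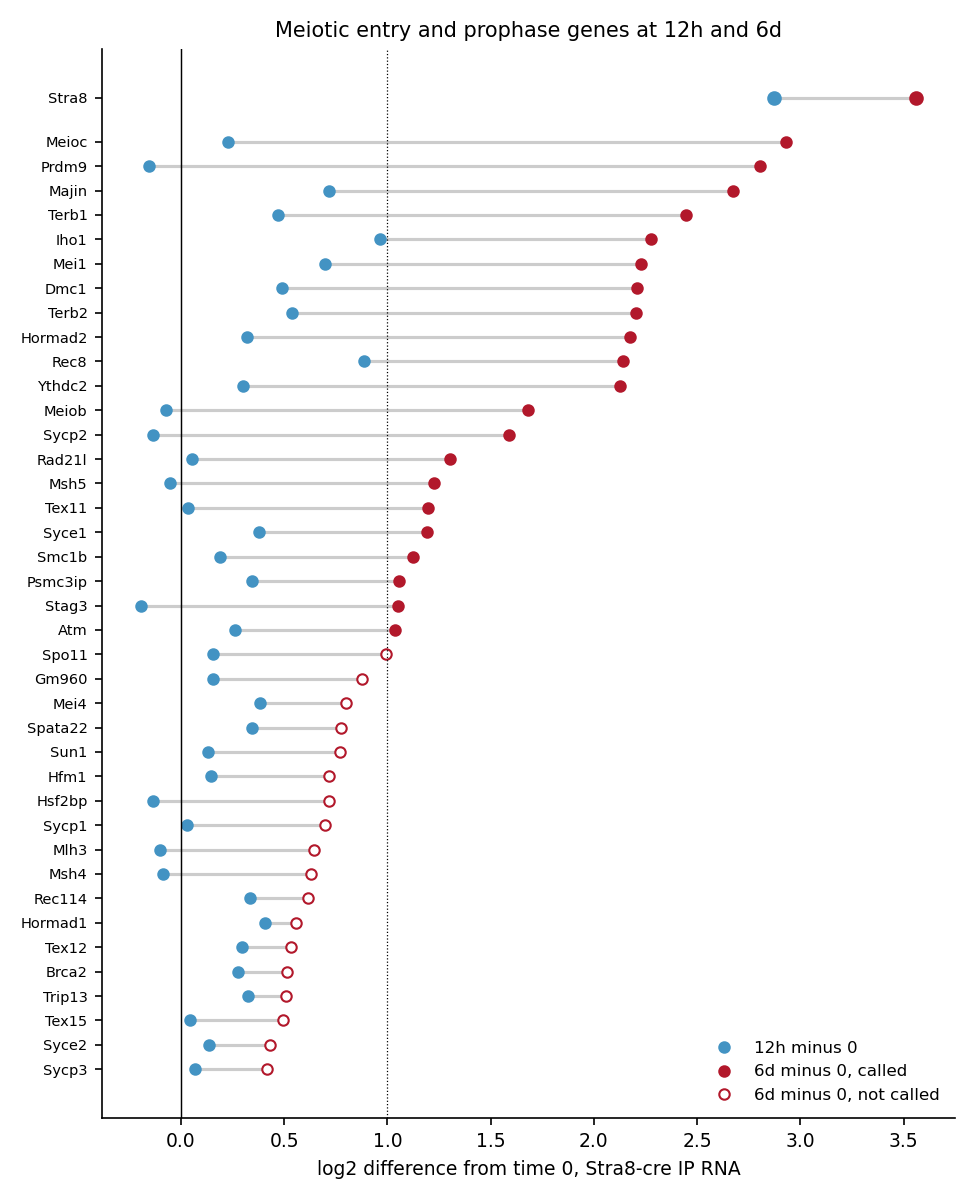
Log2 difference from time 0 in Stra8-cre IP RNA for the 39 measured genes of the meiotic entry and prophase list and Stra8 (top), at 12h (blue) and 6d (red, filled where called); the dotted line marks 2-fold. No listed gene reaches 2-fold at 12h, and 21 are called at 6d, whereas Stra8 is far above 2-fold at both.

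Genes of undifferentiated spermatogonia were called lower from 12h on in Stra8 IP RNA. Of 18 measured, none was called at 4h. At 4h 0.231% of all genes were called higher and 0.01% lower, so a count of 0 calls among 18 is near the background. At an unadjusted limma p under 0.05 there were 3 of the 18 and 2403 of all 19938 genes. At 12h Lhx1 (-1.47), Etv5 (-1.37) and Eomes (-1.02), transcription factors of the stem cell state, were lower, where 0.336% of all genes were. At 24h Upp1 (-1.27) was called lower, where 0.231% of all genes were. At 48h Pou5f1 (-1.53) and Upp1 (-1.202) were called lower, where 0.547% of all genes were. Over all 19938 genes, 3495 at 24h and 4645 at 48h had an unadjusted limma p under 0.05. Of the 18 listed genes, 16 did at each of these times and none of them was higher (list medians -0.547 and -0.69). At 4d 11 were lower (median -1.05; 0.848% of genes higher and 1.1% lower), led by Gfra1, the GDNF receptor (-2.04). At 6d 8 were lower (2.27% of all genes) and at 8d 14 (3.01%). No member was called higher than at time 0 in Stra8 IP RNA. In Ngn3 IP RNA at 4h 1 of the 18 was called higher and 0 lower, where 0.311% of all genes were called. In the 4d comparison of Stra8 IP RNA, Sertoli cell markers had a median of 0.512 (1 of 23 called higher and 1 lower). Macrophage markers had a median of 0.625 (2 of 6 higher) and germ cell markers one of -0.247 (1 of 15 lower). The part of these markers in the 4d differences of the undifferentiated and meiotic lists was not tested. Zbtb16, a stem cell factor, passed the test in Stra8 IP RNA at 8d only (-1.05). Among 15 measured regulators of Stra8, 0 were called by limma from 4h to 48h in Stra8 IP RNA. At these times 0.241% to 0.888% of all genes were called, so a count of 0 calls among 15 is near the background. At an unadjusted limma p under 0.05 there were 2, 5, 5 and 9 of the 15 at 4h, 12h, 24h and 48h. All genes under that threshold numbered 2403, 2792, 3495 and 4645 of 19938. Of the 9 regulators at 48h, 4 were higher than at time 0. Dmrt1, which holds Stra8 back in spermatogonia, was at 0.18, 0.08 and 0.001 at 4h, 12h and 6d. Dazl, an RNA-binding licensing factor of germ cells, was at 0.02, 0.08 and 0.21, and Nanos2, which represses meiosis in male germ cells, at -0.25, -0.50 and -0.99. Dmrtb1 was called higher at 4d (2.55), 6d (1.99) and 8d (1.75). The other calls in Stra8 IP RNA were Pcgf6 at 4d (-1.15) and, at 8d, Nanos3 (-1.26), Zbtb16 and E2f6 (-1.00). No other regulator of that list was called there at any time. In Ngn3 IP RNA at 4h 1 of the 15 was called lower and 0 higher, where 0.311% of all genes were called. Dmrtb1 had a mean log2 level of 10.48 at time 0 and 8.66 at 4h in Ngn3 IP RNA.

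Genes whose group means followed those of Stra8 most closely were sought by Pearson correlation of log2 means, as a description: groups share lines, fractions and arrays. Ranked in each set were genes whose group means ranged at least 2-fold within it, with predicted or clone symbols left out. Over all 35 groups the highest were Nr6a1, a germ cell nuclear receptor (r = 0.862), Acp5 (0.836), Nkd1 (0.818), Chga (0.809), Fam118a (0.806), Creld2 (0.803), Kit (0.798) and Rab39 (0.798), of 10692 genes ranked. These 8 also had r from 0.643 to 0.857 over the 8 Stra8 IP groups and from 0.654 to 0.796 over the 17 total RNA groups. Over the Stra8 IP groups the highest were Esyt3 (0.881), Ptpmt1 (0.875), Arg2 (0.851), Tspan17 (0.85), Nek2, a mitotic kinase (0.847), Taf13 (0.84), Aldh1a2, an RA-synthesising enzyme (0.832), and Zfp872 (0.828). Over the total RNA groups they were Esyt3 (0.94), Phactr1 (0.912), Stac2 (0.888), Tec (0.887), Coro2a (0.878), Tspan17 (0.875), Gadd45b (0.871) and Gpr55 (0.863). Phactr1 (0.866) and Nkd1 (0.857) exceeded Arg2 over the Stra8 IP groups but ranged less than 2-fold there, so they were not ranked.

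Esyt3, first in both of the last sets, had r = 0.109 over all 35 groups. Its difference from time 0 was 2.69 in Stra8 total RNA and 3.02 in Amh total RNA at 12h, and 3.35 and 2.71 at 6d, all called. In Stra8 IP RNA it was 0.96 at 12h (not called) and 1.54 at 6d (called). Averaged over times, Esyt3 was lower in Stra8 IP than in Amh IP RNA by 1.95 (difference -1.95, SE 0.13), the reverse of Stra8.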

How the data were processed

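Affymetrix arrays of testis RNA were used as the authors deposited them: RMA intensity on a linear scale, per the submitters' processing notes, with software version and settings not given in the sources used here. RMA summarises each probe set and evens out array distributions, so levels of different genes are not compared. log2 was taken of the deposited intensity values, with no further scaling. Of 28853 probe sets 23410 were listed with a gene; those with several genes (1621) were left out, and genes with more than 1 probe set (999) took that with the highest mean. One group-means model over the 35 groups was fitted to 19938 genes with limma 3.58.1 (R 4.3.3, eBayes with intensity trend) and tested on simulated data. Groups came from the labels. A gene was called at a Benjamini-Hochberg adjusted p under 0.05 and at least 2-fold. Named beside Stra8 were the 8 genes with the highest correlation of group means in each of 3 sets (ranging at least 2-fold), up to 6 called members per list and direction, and a fixed list of germ cell genes; Prdm9 array values and other listed genes were chosen for display afterwards. Stra8 and the lists were chosen with earlier results of these data known. Replicate numbers were checked as pairs: deviations of same-numbered IP and total arrays correlated above 0.1 in 7 of 7 Amh, 3 of 8 Stra8 and 2 of 2 Ngn3 pairs of groups (r from -0.297 to 0.585 overall), and in 6 of 29 pairs of times. Alternatives covered scaling, filter, fold minimum, probe set choice, variance trend, samples fitted, replicate block and arrays left out; fits without the 3 arrays of narrowest signal range were added after seeing the data.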

Additional observations from a re-analysis of the deposited data

Results flagged for a closer look

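The change of Stra8 from time 0 to 4d differed between total RNA of the Stra8 and Amh lines by a test of the difference itself: it was smaller in the Stra8 line by a log2 difference of -1.742 (limma, adjusted p = 0.0273), and the Amh arrays labelled 4d carry RA target levels seen elsewhere at 4h.

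IP minus total RNA in the Amh line differed between times for Stra8, with a largest departure from time 0 of -2.357 at 12h (limma F test, adjusted p = 0.0315).

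The response of Stra8 over time differed between Stra8 IP and Amh IP RNA, with a largest difference of 2.319 at 6d (limma F test, adjusted p = 0.000516). No group of 4 arrays had an array of Stra8 far from the others by Dixon's ratio (0.488, 0.44 and 0.72, all below the critical value).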

How the results depend on the processing

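No called difference of Stra8 changed direction under the settings run. Median centring, quantile normalization, leaving out the lowest 30% of genes, averaging a gene's probe sets, no intensity trend, only the groups compared, and leaving out the 3 arrays of narrowest range each kept all 51 comparisons on their side of the threshold; leaving out the Amh arrays labelled 4h and 4d kept 47 of 47 and the Stra8 total arrays labelled 4h 49 of 49. With no fold minimum, Stra8 total at 4h (0.81) and the mean of Stra8 total minus Amh total (-0.42) were called, and the count of genes called in Stra8 IP RNA went from 48 to 329 at 4h, 95 to 916 at 12h and 1192 to 6668 at 6d, and of meiotic genes higher from 0 to 1 at 12h and 21 to 36 at 6d. With the replicate block, the Amh IP course (1.24, adjusted p = 0.0513) lost its call and Stra8 IP minus total over time (1.05, adjusted p = 0.0111) gained one; it changed no other call on Stra8. In IP against total RNA of the Amh line, where every pair of groups passed the check, the block kept both calls, and so it did for the mean in the Ngn3 line; the Amh IP course is a comparison of times, where 6 of 29 pairs passed.

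Of 494 values with 1 array left out, 454 kept their call, 35 lost it and 5 gained one. Ranges were 0.63 to 1.07 for Stra8 total at 4h, 0.83 to 1.19 at 48h and 0.18 to 1.48 at 4d, 1.41 to 1.82 for Stra8 IP at 48h, 0.077 to 1.88 at 4d, -1.54 to 0.27 for 48h to 4d and -1.32 to -0.97 for 6d to 8d, 1.63 to 2.26 and 1.55 to 2.17 for Amh total at 24h and 48h, 1.02 to 1.47 for Amh IP at 6d and for its course, 1.45 to 1.85 for Ngn3 total, 1.48 to 1.85 for Ngn3 IP, -2.39 to -1.10 for the 4d response difference, 1.03 to 1.47 for Stra8 IP minus total over time and -2.67 to -2.05 for Amh. Among differences not called, 3 changed sign in some settings: 48h to 4d (without Stra8 IP 4d replicate 1), Amh IP at 4h (without its replicate 1) and the 24h response difference, which lies near 0. Of the 8 genes most like Stra8, Spearman correlation shared 5 (all groups), 2 (Stra8 IP) and 5 (total RNA), and leaving out the Amh arrays labelled 4h and 4d shared 4 (all groups). Groups of 2 arrays limit precision throughout. The causes were not tested.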
